A study of Mus musculus with 6 samples.

Results

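The genes of methionine and betaine metabolism were examined in the adrenal glands of adult female C57Bl/6J mice whose mothers had received an antagonist of the NMDA (N-methyl-D-aspartate) receptor for glutamate. The listed genes were Bhmt, Bhmt2, Mat1a, Mat2a, Gnmt, Ahcy, Cbs, Cth, Pemt and Sardh, and a probe set was taken as a member where the platform annotation gave it 1 gene symbol that was among these 10. Of the 25150 probe sets with deposited values, the rule found 10, which belong to 8 of the 10 genes. Bhmt had 3 probe sets, and Bhmt2, Mat1a, Gnmt, Cbs, Cth, Pemt and Sardh had 1 each. All 10 were among the 16034 probe sets tested, and all 10 had a log2 value of at least 6 on each of the 6 arrays. The 3 probe sets annotated to Ahcy also carried the symbol Gm4737 and so lay outside the rule, and Mat2a was not analysed here.

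In the CGP group, mothers were given the competitive antagonist CGP 39551 (CGP) by mouth, at 5 mg/kg, during pregnancy and up to weaning. The control group had no such treatment, and the labels name no vehicle. In both groups the glands of the female offspring were frozen at 21 weeks of age, and RNA pooled from 18 mice was hybridised to 3 whole-transcript arrays per group. Nothing in the labels shows that the 3 arrays held separate pools, so p-values and SDs describe the spread between arrays, which may be technical, and not that between mice.

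Methionine is activated to S-adenosylmethionine, the methyl donor of the cell, by the methionine adenosyltransferases, of which Mat1a is the form of adult liver. Methyl transfer leaves S-adenosylhomocysteine, which Ahcy cleaves to homocysteine. Homocysteine is either methylated back to methionine, with betaine as donor through Bhmt or with folate through methionine synthase, or passed through Cbs and Cth to cysteine. This pathway is best known from liver, and Bhmt is also expressed in the kidney of several mammals.

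All 8 genes were lower in the CGP group than in controls. Each of the 10 probe sets passed the test (limma, adjusted p under 0.05 over all 16034 probe sets), none was higher, and the 3 CGP values lay under the 3 control values at all 10. Over all probe sets tested, 1.59% were called lower, 1.94% were called higher, 3.53% were called in either direction and 12.6% had all CGP values under all control values. The members were chosen with earlier results of these data known, so these shares give a background and no test of the set. The median log2 fold change was -0.53 over the members and -0.01 over all probe sets tested. The members ran between -1.13 for Mat1a and -0.35 for Pemt, so that the level in CGP adrenals was 45.6% to 78.6% of that in control adrenals. At 5 of the 10 probe sets the decrease was at least 1.5-fold and called, against 0.748% of all tested. These arrays measure whole glands, in which fewer cells of a type and less RNA per cell cannot be told apart. In the same arrays, 29 of 31 tested hepatocyte markers fell and 15 of 17 tested adipocyte markers rose. The share of other tissue in the glands as collected was not tested.

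**Figure D1:**
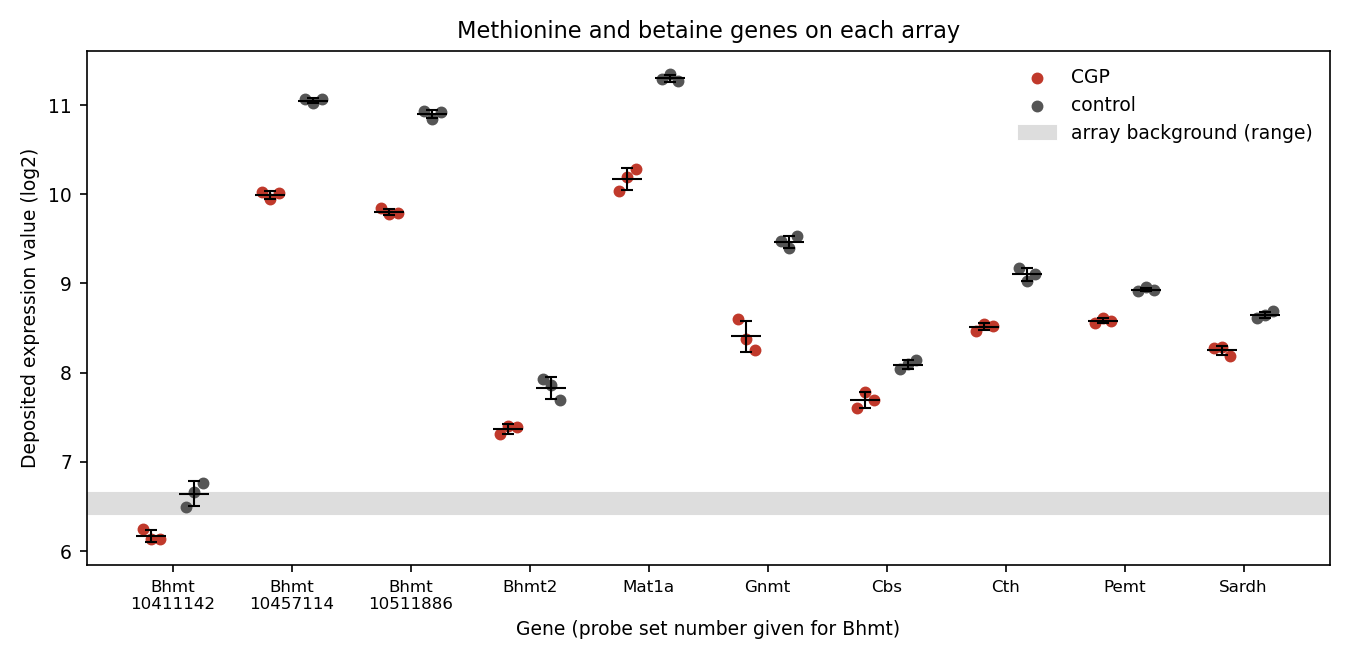
Deposited log2 value (vertical axis) of each member probe set (horizontal axis) on the 3 CGP arrays (red) and the 3 control arrays (grey), with black bars for group means and their SDs and a grey band over the range of the array background. All 10 probe sets have every CGP point under every control point, and Bhmt probe set 10411142 alone lies at the background band.

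Of the enzymes that make and use S-adenosylmethionine, Mat1a and Gnmt were lower in CGP adrenals by more than 2-fold and Pemt by less. Mat1a, which makes S-adenosylmethionine in liver, had log2 values of 10.04, 10.19 and 10.28 on the CGP arrays, against 11.29, 11.35 and 11.27 on the control arrays. The lowest control value exceeded the highest CGP value by 0.99. Mat1a was 2.19-fold lower in the CGP group (log2 fold change -1.13, SE 0.07, limma adjusted p = 0.000112). It held place 15 of 16034 in the order of decreases.

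Gnmt, glycine N-methyltransferase, uses S-adenosylmethionine to turn glycine into sarcosine and is abundant in liver and exocrine pancreas. Its log2 values were 8.60, 8.37 and 8.26 on the CGP arrays and 9.48, 9.40 and 9.53 on the control arrays. Its CGP values were the most scattered of any member (SD 0.17, against 0.07 in controls), yet the groups were 0.80 apart. Gnmt was 2.09-fold lower (log2 fold change -1.06, SE 0.09, limma adjusted p = 0.000436). Mat1a and Gnmt stayed called without any 1 of the arrays.

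Sardh, the mitochondrial dehydrogenase that takes sarcosine back to glycine, was lower by a smaller amount. It read 8.27, 8.29 and 8.19 on the CGP arrays, against 8.61, 8.65 and 8.69 on the control arrays, with no overlap. Its log2 fold change was -0.40 (SE 0.05, limma adjusted p = 0.00415). Pemt, the methyltransferase that makes phosphatidylcholine from phosphatidylethanolamine in hepatocytes, had the smallest change of the members. It read 8.56, 8.62 and 8.58 on the CGP arrays and 8.92, 8.96 and 8.92 on the control arrays, with an SD of 0.03 in CGP and 0.02 in controls. Its log2 fold change was -0.35 (SE 0.04, limma adjusted p = 0.00471), and neither Sardh nor Pemt lost its call on leaving out an array.

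Bhmt, betaine-homocysteine methyltransferase, moves a methyl group of betaine to homocysteine. Its probe set 10457114 read 10.03, 9.94 and 10.01 on the CGP arrays, against 11.06, 11.02 and 11.06 on the control arrays. Its probe set 10511886 read 9.85, 9.78 and 9.79 on the CGP arrays and 10.93, 10.84 and 10.92 on the control arrays. At both, the arrays of a group lay close together and the groups were far apart, by 0.991 and 0.999. The log2 fold changes were -1.05 (SE 0.05) and -1.09 (SE 0.05), that is 2.08-fold and 2.13-fold lower, both with a limma adjusted p of 4.33e-05. The annotation gives both probe sets the same 6 transcript accessions, so they are not independent measurements.

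The third Bhmt probe set, 10411142, carries 2 of these accessions and was much dimmer. It read 6.25, 6.14 and 6.13 on the CGP arrays, against 6.49, 6.67 and 6.77 on the control arrays. Background was the level under which 75% of 127 sensory receptor probe sets (olfactory, vomeronasal and trace amine) lay in that array. It was between 6.42 and 6.55 on the CGP arrays, above all 3 CGP values. On control arrays 1 to 3 it was 6.49, 6.65 and 6.60, so the control values lay only a little above it. With the CGP arrays set to background, the decrease came to 1.12-fold. This is not a lower bound, because background itself was higher on control arrays 2 and 3 than on any CGP array. The measured log2 fold change of -0.47 (SE 0.08, limma adjusted p = 0.0161) has no meaning as a size. The call was lost without CGP array 2 (adjusted p = 0.0867), CGP array 3 (0.0909), control array 2 (0.0530) or control array 3 (0.0544).

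Bhmt2, the neighbouring gene of Bhmt in the RefSeq order, encodes a homocysteine methyltransferase that uses S-methylmethionine. It read 7.31, 7.41 and 7.39 on the CGP arrays and 7.93, 7.86 and 7.69 on the control arrays. The groups did not overlap, with control array 3 the nearest to the CGP values. Its log2 fold change was -0.46 (SE 0.07, limma adjusted p = 0.0109), and the call was lost without CGP array 1 (adjusted p = 0.0507) or CGP array 3 (0.0576).

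The change in Bhmt was set against that in Bhmt2 within each array. The log2 ratio of the brightest Bhmt probe set to Bhmt2 was 2.72, 2.54 and 2.62 on the CGP arrays, against 3.14, 3.16 and 3.37 on the control arrays. All 3 CGP ratios were lower, by 0.60 on average, so that this Bhmt probe set was reduced 1.51-fold more than Bhmt2. An exact two-sided permutation test gave p = 0.1, the smallest value that 3 against 3 arrays allow. With the mean of all Bhmt probe sets, which includes the dim one, the ratio differed by -0.42. Bhmt2 was much dimmer, with means of 7.37 in CGP and 7.83 in controls, against 9.99 and 11.05 for the brightest Bhmt probe set. The part of this unequal brightness in the ratio was not tested. The genes are related in sequence, and how far the probes of either detect the other was not tested.

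The promoters of Bhmt, Bhmt2 and Gnmt are shown because the first and the last belong to genes that fell by more than 2-fold and the second to the neighbour that fell less. Each is the stretch of 250 bases before the RefSeq transcription start, on the minus strand of GRCm38.p6, written 5′ to 3′. Capitals mark AGGTCA or its complement TGACCT, a 6-base site shared by HNF4 and other nuclear receptors. Bhmt lies at chr13:93637759-93638008, Bhmt2 at chr13:93674303-93674552 and Gnmt at chr17:46729166-46729415.
Bhmt: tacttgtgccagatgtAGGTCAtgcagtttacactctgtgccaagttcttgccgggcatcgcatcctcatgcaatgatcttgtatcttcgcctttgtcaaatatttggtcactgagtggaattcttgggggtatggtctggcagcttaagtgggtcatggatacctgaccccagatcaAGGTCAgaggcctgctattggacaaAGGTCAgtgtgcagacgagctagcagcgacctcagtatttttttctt
Bhmt2: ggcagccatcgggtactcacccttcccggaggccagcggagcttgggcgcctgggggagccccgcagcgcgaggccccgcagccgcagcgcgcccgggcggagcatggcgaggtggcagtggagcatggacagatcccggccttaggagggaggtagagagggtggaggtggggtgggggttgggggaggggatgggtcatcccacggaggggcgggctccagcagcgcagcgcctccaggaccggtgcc
Gnmt: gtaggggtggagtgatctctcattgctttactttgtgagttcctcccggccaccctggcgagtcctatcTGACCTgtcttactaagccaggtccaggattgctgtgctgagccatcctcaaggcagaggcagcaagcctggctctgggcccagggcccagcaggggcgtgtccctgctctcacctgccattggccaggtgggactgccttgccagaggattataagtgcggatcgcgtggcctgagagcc

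The Bhmt promoter held 3 copies of AGGTCA on its own strand, at positions -234, -72 and -47 from the start site. Of 32851 promoters in the table, 14% held at least 1 copy on either strand and 0.131% held 3 or more. The cut of 3 equals the count in Bhmt itself. The Gnmt promoter held 1 copy, on the opposite strand, the Sardh promoter 1 copy, and those of Bhmt2, Cbs and Pemt none. Cbs alone among these had another of the 7 motifs searched, the USF E-box CACGTG, which 6.02% of all promoters held. The others searched on both strands were the paired HNF4 repeat AGGTCANAGGTCA (0.0335% of all promoters), which contains the 6-base site, the HNF1 palindrome GTTAATNATTAAC (0.00913%), the C/EBP palindrome TTGCGCAA (0.164%), the glucocorticoid response element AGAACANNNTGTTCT (0.00913%) and the TATA box TATAAA (12.4%). Bhmt and Gnmt had 5 and 6 CpG dinucleotides, near the median of 6 over all promoters, while Bhmt2 had 20 and Cbs 21. Sardh had 3 and the Pemt promoters 1 and 2. The log2 fold changes were -0.40 for Sardh, -0.35 for Pemt and -0.46 for Bhmt2, and their order was not tested. Links of the decreases with CpG number or with copies of AGGTCA were not tested. Mat1a and Cth had no entry.

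Transsulfuration carries homocysteine sulfur to cysteine, the precursor of taurine and glutathione. Cbs, cystathionine beta-synthase, read 7.60, 7.79 and 7.70 on the CGP arrays, against 8.04, 8.09 and 8.14 on the control arrays. The groups were 0.26 apart, the smallest gap of the members above background. Its log2 fold change was -0.39 (SE 0.06, limma adjusted p = 0.0112), and the call was lost without CGP array 3 (adjusted p = 0.0639) or control array 3 (0.0583).

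Cth, cystathionine gamma-lyase, which releases cysteine, was lower by more. It read 8.47, 8.55 and 8.53 on the CGP arrays and 9.17, 9.03 and 9.11 on the control arrays, a gap of 0.48. Its level in CGP adrenals was 66.5% of that in controls (log2 fold change -0.59, SE 0.05, limma adjusted p = 0.000770), and its call held on leaving out each array in turn. The 95% intervals of Cth (-0.71 to -0.46) and of Gnmt (-1.26 to -0.86) did not overlap, and this difference was not tested in itself.

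**Figure D2:**
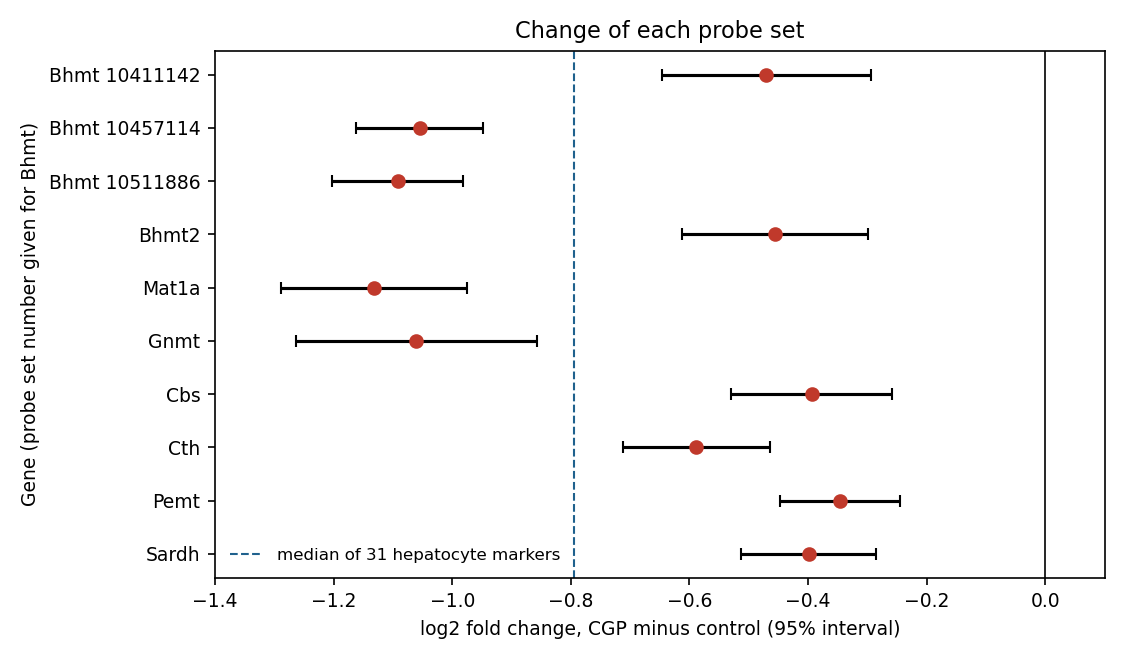
The horizontal axis gives the CGP minus control difference (log2) of each member probe set, named on the vertical axis, with its 95% interval, and the median of 31 tested hepatocyte markers (-0.79) as a dashed line. Mat1a, Gnmt and Bhmt probe sets 10457114 and 10511886 lie left of the line with values of -1.05 to -1.13, and the other 6 lie right of it with values of -0.35 to -0.59.

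The 3 probe sets shared by Ahcy, which cleaves S-adenosylhomocysteine, and Gm4737 were lower too, by similar amounts. Probe set 10344713 read 10.97, 10.98 and 10.96 on the CGP arrays, against 11.32, 11.40 and 11.40 on the control arrays. Probe sets 10439762 and 10488816 averaged 10.49 and 10.37 on the CGP arrays, against 10.89 and 10.75 on the control arrays. The log2 fold changes were -0.40, -0.41 and -0.39, with limma adjusted p of 0.00935, 0.00785 and 0.00782 in a fit over 23496 probe sets of any annotation, in which 0.928% were called lower. Whether Ahcy, Gm4737 or both gave these values cannot be told apart.

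The rest of the pathway was taken from 4 lists of 83 genes, of which 71 were tested. Of these, 6 were called, 3 lower and 3 higher, and 22 had an unadjusted limma p under 0.05. Over all probe sets tested, 1.59% were called lower and 1.94% higher. The median log2 fold change of the 71 genes was -0.04. The 6 calls became 2 without CGP array 2, CGP array 3 or control array 3, and 9 without control array 1. The median of the members (-0.53) lay below that of each list, the lowest of which was -0.10 for the folate cycle.

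In the list of choline oxidation and phosphatidylcholine synthesis, 15 genes were tested and 2 fell, 1 rose and 12 were not called. Dmgdh, which follows Bhmt2 in the RefSeq gene order, encodes the dehydrogenase that turns dimethylglycine, the product of the Bhmt reaction, into sarcosine. It averaged 7.41 ± 0.08 on the CGP arrays and 8.08 ± 0.16 on the control arrays (log2, SD, n = 3 each) and fell by 0.67 (SE 0.08, limma adjusted p = 0.00462). Pipox, the peroxisomal oxidase of sarcosine and pipecolic acid, averaged 7.08 ± 0.02 on the CGP arrays and 7.56 ± 0.02 on the control arrays and fell by 0.48 (SE 0.04, limma adjusted p = 0.000692). Both calls held on leaving out each array in turn. Among the 12 not called, Chdh, the choline dehydrogenase that leads to betaine, had a log2 fold change of -0.09 (95% interval -0.21 to 0.03, limma adjusted p = 0.377). Aldh7a1, an aldehyde dehydrogenase that acts on betaine aldehyde, had 0.10 (95% interval -0.01 to 0.21, limma adjusted p = 0.309). The betaine transporter Slc6a12 had -0.45 (95% interval -0.71 to -0.19, limma adjusted p = 0.0737). Chpt1, the choline phosphotransferase of the other route to phosphatidylcholine, rose by 0.41 (SE 0.06, limma adjusted p = 0.0150), and its call was lost without CGP array 2, CGP array 3 or control array 3 (adjusted p up to 0.0835).

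In the folate cycle list, 20 genes were tested and 1 fell, 1 rose and 18 were not called. Mtr, methionine synthase, which remethylates homocysteine with folate, was not called (log2 fold change 0.15, 95% interval 0.03 to 0.26, limma adjusted p = 0.166). Gldc, the glycine decarboxylase of the glycine cleavage system, fell by 0.36 (limma adjusted p = 0.0415), and on leaving out each array in turn it was still called without control array 2 and lost its call without each of the other 5 (adjusted p up to 0.159). Folr2, a folate receptor of macrophages, was called higher (limma adjusted p = 0.0156), with 6.86 ± 0.02 on the CGP arrays and 6.59 ± 0.02 on the control arrays (log2, SD, n = 3 each). It lay under background on 2 of the 3 control arrays, so the size of the difference is uncertain, and its call was lost without CGP array 2, CGP array 3 or control array 3 (adjusted p up to 0.0907). Limma called 0 of the 18 genes of S-adenosylmethionine use, polyamines and methionine salvage, of which 5 had an unadjusted p under 0.05. Of the 18 genes of taurine and glutathione, 1 rose and 17 did not pass. The gene that rose was Csad, the decarboxylase of taurine synthesis (by 0.27, SE 0.04, limma adjusted p = 0.0148), with the call lost without the same 3 arrays as for Folr2 (adjusted p up to 0.0907).

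**Figure D3:**
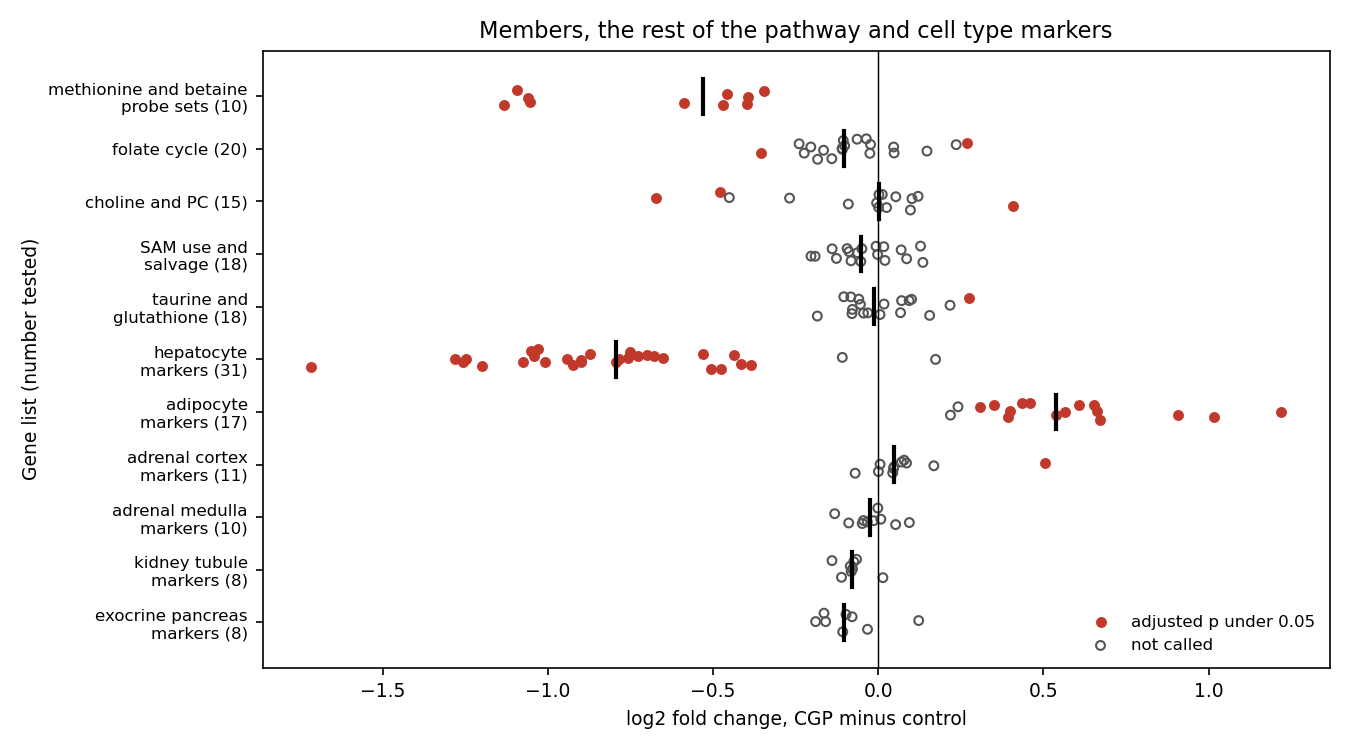
The horizontal axis gives the CGP minus control difference (log2) of the member probe sets and of the tested genes of the pathway and marker lists, named on the vertical axis (number tested in parentheses; PC, phosphatidylcholine; SAM, S-adenosylmethionine), drawn filled for an adjusted p under 0.05, with a black bar at the median. All 10 member probe sets and 29 of 31 hepatocyte markers are filled and left of 0, and 15 of 17 adipocyte markers are filled and right of 0.

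Hepatocyte and adipocyte markers moved in the same arrays. Of 31 tested hepatocyte markers, a list that holds none of the members, 29 fell and 2 were not called, and the median log2 fold change was -0.79. Their summed linear level was 39592 to 40224 on the CGP arrays, against 58026 to 58753 on the control arrays. The median member value moved alongside, at 8.39 to 8.51 on the CGP arrays and 8.99 to 9.04 on the control arrays. The 3 with the smallest p were Hgd of tyrosine breakdown (log2 fold change -1.25), Cps1, which starts the urea cycle (8.90 ± 0.02 in CGP and 10.10 ± 0.04 in controls, SD, n = 3 each), and the plasma kininogen Kng1 (-1.05). The list median was 8.91 to 9.01 in CGP and 9.82 to 9.95 in controls, although the labels give adrenal tissue. The 2 hepatocyte markers not called went opposite ways. Trf had a log2 fold change of -0.11 (limma adjusted p = 0.226). Cyp2e1 had 0.17 (limma adjusted p = 0.0706), with all its CGP values above all its control values. Of the 31, Slco1b2 lay under background on all 6 arrays, and Cyp7a1 and Cyp1a2 on all 3 CGP arrays and on 0 control arrays. The part of such RNA in the decreases of the members was not tested.

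Of 17 tested adipocyte markers, 15 rose, 0 fell and 2 were not called (median 0.54). Their summed linear level was 55915 to 56512 on the CGP arrays and 40074 to 41167 on the control arrays. The smallest p-values of the list belonged to Ucp1 of brown fat thermogenesis (log2 fold change 1.22), the glycerol channel Aqp7 (1.02) and the insulin-responsive glucose transporter Slc2a4 (0.65). Their part in the result was not tested. Of 17 listed kidney tubule markers 8 were tested, and of 16 listed exocrine pancreas markers 8, so the counts leave out the others. Limma called 0 of the 8 kidney markers (0 with an unadjusted p under 0.05). It called 0 of the 8 pancreas markers (2 with an unadjusted p under 0.05). In each list, 2 of the 8 lay under background on every array. The summed linear level was 930 to 973 on the CGP arrays and 924 to 1069 on the control arrays for the kidney list, and 1254 to 1299 on the CGP arrays and 1331 to 1401 on the control arrays for the pancreas list. The tissue label matched its markers: the median of 11 adrenal cortex markers was 12.84 to 12.95 in CGP and 12.68 to 12.83 in controls, and that of 10 medulla markers 11.42 to 11.45 in CGP and 11.33 to 11.44 in controls. Of the cortex markers 1 rose, the aldosterone synthase Cyp11b2 (0.50), and limma called 0 medulla markers (1 with an unadjusted p under 0.05).

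Over the series, the SD of the difference between 2 arrays was 0.103 to 0.128 within the CGP group, 0.135 to 0.177 within controls and 0.160 to 0.218 between groups. The number of probe sets called was 566, and became 320 without CGP array 1, 236 without CGP array 2, 237 without CGP array 3, 1099 without control array 1, 364 without control array 2 and 269 without control array 3.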

How the data were processed

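Adrenal RNA was measured on 6 Affymetrix whole-transcript arrays, 3 per group, and groups and array numbers came from the sample titles. The authors deposited log2 expression values of 25150 probe sets. The submitters' notes name RMA, which corrects background, quantile normalises and summarises probes, and Partek. Their versions and the genome build are not given in these sources. No further normalisation was done. Probe sets were named by the platform annotation, and those with 1 symbol that reached log2 6 on 3 or more arrays (16034) entered limma 3.58.1 (R 4.3.3, lmFit and eBayes, two-sided, no covariates), with Benjamini-Hochberg adjustment over all of them. SE is the moderated standard error. The code was tested on simulated data. A list gene was represented by its brightest probe set. All 10 members were described, and up to 4 called genes per pathway list and 3 per marker list by smallest p. Chdh, Aldh7a1, Slc6a12, Mtr, Slco1b2, Cyp7a1, Cyp1a2, Trf, Cyp2e1 and the probe sets shared with Gm4737 were chosen after their values were seen. Members and lists were chosen with earlier results of these data known. Promoters are from RefSeq (GRCm38.p6), with entries for 6 of the 8 genes measured. The planned comparison of Mat1a with Mat2a and that of protein sequences were not run. Plots were drawn with matplotlib 3.10.9.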

Additional observations from a re-analysis of the deposited data

How the results depend on the processing

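Of 150 values of the members under 15 alternatives, 134 kept their direction and their side of the threshold, 16 kept the direction but were no longer called, and 0 changed sign. The 4 probe sets with the largest decreases and Cth were called under all 15. The 10 members called lower became 5 when tested against a minimum change of 1.2-fold, and 7 to 10 when 1 array was left out. With all probe sets tested whatever their annotation, the dim Bhmt probe set lost its call (adjusted p = 0.0544). With the array number as a replicate block, 8 of the 10 members, 2 other pathway genes and 224 of all probe sets were called. The deviations of arrays of the same number correlated at -0.36, -0.17 and -0.12, so the numbers were not taken to pair the arrays. The 566 probe sets called became 1261 with a variance trend and robust prior, 1665 with array weights, 126 against 1.2-fold, and 236 to 1099 when 1 array was left out. The 6 other pathway genes called became 16, 14 and 0 (limma's treat, 3 with an unadjusted p under 0.05) under the first 3 of these and 2 to 9 when 1 array was left out. The share of calls that were lower was 45.1% as reported, 42.4% with quantile normalisation and 43.5% with median centring, but 57.1% with all probe sets tested, 69.6% with the replicate block, 80.2% against 1.2-fold, and 44.3% to 66.5% when 1 array was left out (66.5% without CGP array 2 and 62.9% without CGP array 3). The ratio of Bhmt to Bhmt2 differed by -0.42 with the mean of all Bhmt probe sets, which includes the dim one. The number of arrays limits the precision.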
